A study of Arabidopsis thaliana with 6 samples.

Results

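The genes described here are 7 of Arabidopsis thaliana that lie along the route of sulfur from sulfate into methionine-derived glucosinolates: BCAT4, UGT74B1 and GSTU20 of glucosinolate synthesis, HL, a phosphatase gene, and APS3, APS4 and SIR of sulfate assimilation. They were taken by name, as the genes that the platform annotation pairs with a probe set of their own, with the brightest probe set kept where a gene had several. All 7 had exactly 1 such probe set, so none was left out and no choice between probe sets arose. They are 7 of 13356 genes that had a probe set of their own. The genes were selected on their log2 differences between 35S:PCO1 and wild type, the comparison described below, so those differences are given as a description. Where a call of one of the 7 is mentioned, it is its place in a fit over all probe sets, which the selection had already used, and it is no evidence for the gene.

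Plants of the genotype 35S:PCO1 were compared with wild-type plants, both kept in air, in 3 samples each, and 1 Affymetrix GeneChip was hybridised per sample. PCO1 is a plant cysteine oxidase, an enzyme that uses oxygen to oxidise a cysteine at the start of the group VII ERF proteins, transcription factors of the hypoxia response, and thereby sends them to degradation. The 35S promoter, of viral origin, drives a transgene in nearly all plant tissues. How many independent transgenic lines stand behind the 3 samples is not given in the labels. Nor is it given whether a sample was 1 plant or a pool. The errors and p-values below therefore reach no further than these samples, and the spread behind them may be technical. Each SE below is that of limma, the program used, unless stated otherwise. Limma moves the variance of each gene toward a value common to all probe sets, so its SE is not the gene's own spread alone. All plants were grown in short days of 8 h light and 16 h dark, at 22 °C in the light and 18 °C at night, and whole rosettes were collected 2 h into the day. Their age was 4 weeks by one label and 5 weeks by another, and some labels write CDO1 in place of PCO1. The annotation used here names no probe set for PCO1, so the transgene was not set against the labels. It leaves many probe sets without a gene name, so PCO1 may still be measured on the arrays. No accession or parental background of the plants is named in the labels used here.

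Sulfate taken up by a plant is activated by ATP sulfurylase to adenosine 5′-phosphosulfate (APS). APS is either reduced to sulfite and then, by sulfite reductase, to sulfide for cysteine and methionine, or phosphorylated to PAPS, the sulfate donor of sulfotransferases. In aliphatic glucosinolate synthesis, methionine is first converted and elongated in its side chain, the amino acid is then built into the glucosinolate core, a glucose is added to the sulfur atom, and a sulfotransferase finishes the molecule with sulfate from PAPS. That last step leaves PAP, a nucleotide that phosphatases break down. Glucosinolates are stored defence compounds of the cabbage order and are abundant in Arabidopsis rosettes.

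The glucosinolate genes and HL had lower signal in 35S:PCO1 rosettes, by 1.37-fold to 1.54-fold, and the sulfate assimilation genes differed by less. BCAT4, UGT74B1, GSTU20 and HL were 4 of the 144 probe sets called lower by limma at a Benjamini-Hochberg adjusted p under 0.05, out of 22746 tested. Over all tested probe sets 0.633% were called lower and 0.840% were called in either direction. As the same comparison led to the choice of these genes, nothing is read from the 4 of 7. In these 4 genes the 35S:PCO1 arrays all lay below the wild-type arrays, a pattern that 9.31% of all tested probe sets showed. Whole rosettes mix many cell types, and fewer cells of a type and less RNA per cell cannot be told apart in them.

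**Figure D1:**
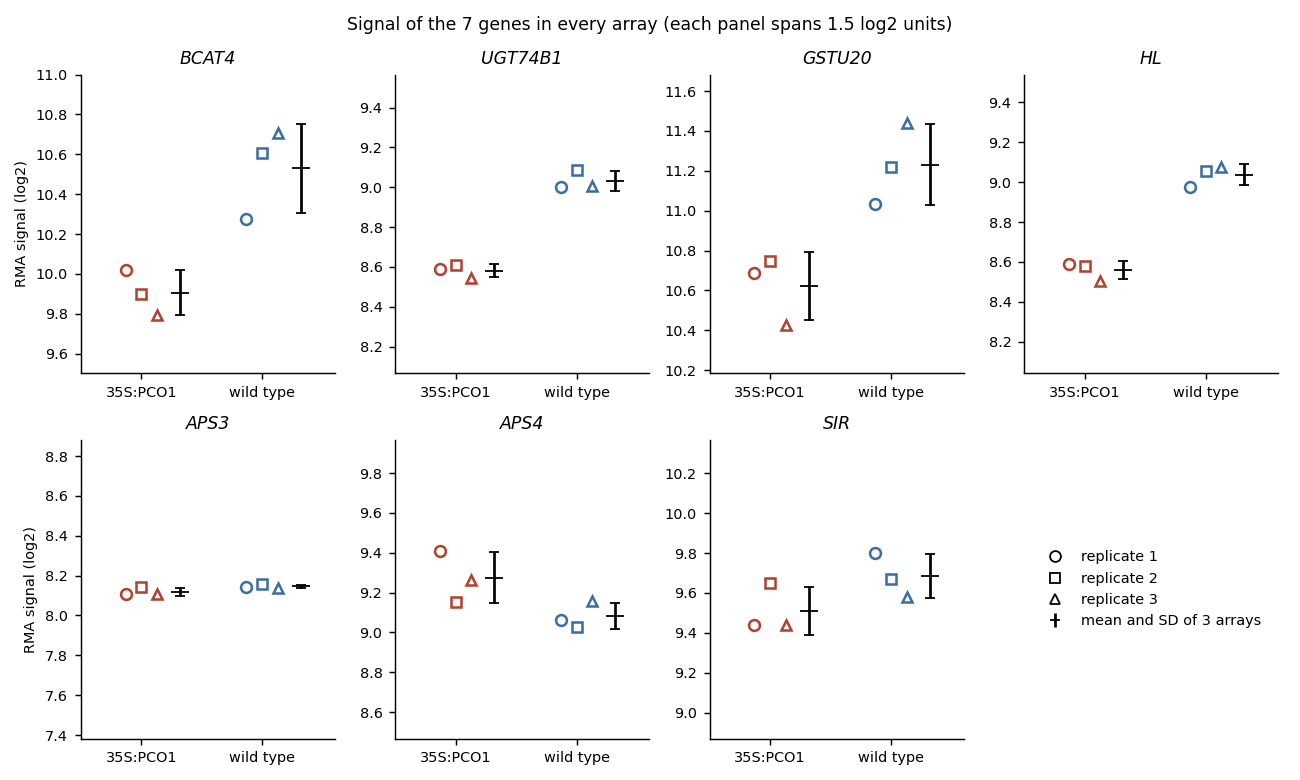
Signal of the 7 genes (vertical axes, log2, each spanning 1.5 units) in each 35S:PCO1 array (red, left) and wild-type array (blue, right), with the mean and SD of 3 arrays beside them. In BCAT4, UGT74B1, GSTU20 and HL the genotypes are separated, while in APS3, APS4 and SIR their values overlap.

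BCAT4 (AT3G19710, probe set 257021_at) encodes the aminotransferase that starts the chain elongation of methionine by removing its amino group. Its log2 signal was 10.02, 9.90 and 9.80 in 35S:PCO1 replicates 1, 2 and 3, against 10.28, 10.61 and 10.71 in wild-type replicates 1, 2 and 3. The groups did not overlap, and the nearest arrays were 0.26 apart. The means were 9.91 ± 0.11 in 35S:PCO1 and 10.53 ± 0.22 in wild type (log2, SD, n = 3 each). The difference of -0.62 (SE 0.11), or 1.54-fold lower, was the largest in size among the 7 genes, and 0.334% of all tested probe sets had a negative difference at least as large.

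GSTU20 (AT1G78370, 260745_at) encodes a glutathione transferase of the tau class, placed in aliphatic glucosinolate synthesis chiefly because its transcript follows those of the pathway. In 35S:PCO1 replicates 1, 2 and 3 its log2 signal was 10.69, 10.75 and 10.43, against 11.03, 11.22 and 11.44 in wild-type replicates 1, 2 and 3. Again the groups did not overlap, with 0.28 between the nearest arrays. The means were 10.62 ± 0.17 in 35S:PCO1 and 11.23 ± 0.20 in wild type (log2, SD, n = 3 each), a difference of -0.61 (SE 0.11), or 1.53-fold lower.

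UGT74B1 (AT1G24100, 264873_at) encodes the glucosyltransferase that adds glucose to the thiohydroximate, the step before the final sulfation, in both aliphatic and other glucosinolates. Its log2 signal was 8.59, 8.61 and 8.54 in 35S:PCO1 replicates 1, 2 and 3, against 9.00, 9.09 and 9.01 in wild-type replicates 1, 2 and 3. The arrays of each group lay within 0.09 of each other, and the nearest arrays of different groups were 0.39 apart. The means were 8.58 ± 0.035 in 35S:PCO1 and 9.03 ± 0.049 in wild type (log2, SD, n = 3 each), a difference of -0.45 (SE 0.05), or 1.37-fold lower.

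HL (AT5G54390, 248155_at), short for HAL2-like, encodes a phosphatase of the family that converts PAP to AMP. Its log2 signal was 8.59, 8.58 and 8.51 in 35S:PCO1 replicates 1, 2 and 3, against 8.98, 9.06 and 9.07 in wild-type replicates 1, 2 and 3. The separation resembled that of UGT74B1, with 0.39 between the nearest arrays of the groups and ranges of 0.08 within 35S:PCO1 and 0.10 within wild type. The means were 8.56 ± 0.046 in 35S:PCO1 and 9.04 ± 0.053 in wild type (log2, SD, n = 3 each), a difference of -0.48 (SE 0.06), or 1.39-fold lower.

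The genes of sulfate activation and reduction did not follow these 4. APS3 (AT4G14680, 245254_at), which encodes an ATP sulfurylase, had a log2 signal of 8.11, 8.14 and 8.11 in 35S:PCO1 replicates 1, 2 and 3, against 8.15, 8.16 and 8.14 in wild-type replicates 1, 2 and 3. All 6 arrays lay close together and the groups overlapped. Its difference was -0.03 (limma SE 0.05, or 0.0126 from its own arrays alone).

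APS4 (AT5G43780, 249112_at), a further ATP sulfurylase gene, was the 1 gene of the 7 with a difference above 0. The 35S:PCO1 replicates 1, 2 and 3 had log2 signals of 9.41, 9.15 and 9.26, against 9.06, 9.03 and 9.16 in wild-type replicates 1, 2 and 3. The groups overlapped only narrowly, at 35S:PCO1 replicate 2 and wild-type replicate 3. The difference was 0.19 (SE 0.07), and it was not among the 0.207% of probe sets called higher.

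SIR (AT5G04590, 250846_at) encodes sulfite reductase, which makes sulfide in the plastid. Its log2 signal was 9.44, 9.65 and 9.44 in 35S:PCO1 replicates 1, 2 and 3, against 9.80, 9.67 and 9.58 in wild-type replicates 1, 2 and 3. The 35S:PCO1 replicate 2 array lay within the wild-type range, so the groups overlapped. The difference was -0.17 (SE 0.08), and it was not called. Of the 7 genes 6 had a difference below 0, with a median of -0.45 over the 7 and of 0.0036 over all tested probe sets. This count and this median follow from how the genes were selected.

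The 4 lower genes differed in how far their arrays spread. BCAT4 and GSTU20 varied widely among wild-type rosettes, with ranges of 0.43 and 0.41 on the log2 scale, and in both genes replicate 1 was the lowest wild-type array and replicate 3 the highest. UGT74B1 and HL had wild-type ranges of 0.09 and 0.10. Within 35S:PCO1, replicate 3 was the lowest array in all 4 genes. The SE of the difference was 0.11 for both BCAT4 and GSTU20, above the median of 0.0648 over all tested probe sets. For UGT74B1 and HL it was below that median, at 0.0540 and 0.0557. From each gene's own arrays alone the SE was 0.144 for BCAT4, 0.153 for GSTU20, 0.0347 for UGT74B1 and 0.0405 for HL.

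**Figure D2:**
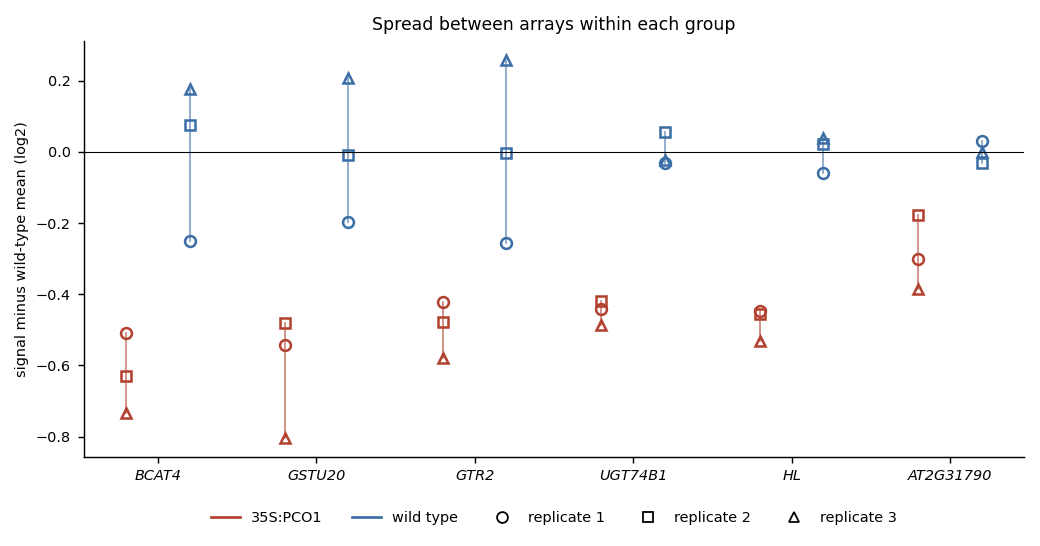
Signal of each array minus the wild-type mean of the gene (log2), for the 4 lower genes and for GTR2 and AT2G31790, with a line over the range of each group (35S:PCO1 red, wild type blue). BCAT4, GSTU20 and GTR2 spread over 0.41 to 0.51 among wild-type arrays, with replicate 1 lowest, while UGT74B1, HL and AT2G31790 spread over 0.06 to 0.10.

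The calls of the 4 lower genes depended on single arrays more than their differences did. BCAT4, UGT74B1, GSTU20 and HL were all called when wild-type replicate 1 was left out, where 489 of the 22746 probe sets were called. UGT74B1 and HL alone were called when wild-type replicate 3 (149 probe sets in all) or 35S:PCO1 replicate 2 (105 in all) was left out. Leaving out wild-type replicate 2, 35S:PCO1 replicate 1 or 35S:PCO1 replicate 3 left none of the 7 called, with 5 probe sets called in all each time. The differences themselves ran from -0.75 to -0.54 for BCAT4, from -0.71 to -0.51 for GSTU20, from -0.47 to -0.42 for UGT74B1 and from -0.51 to -0.45 for HL when 1 array was left out.

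**Figure D3:**
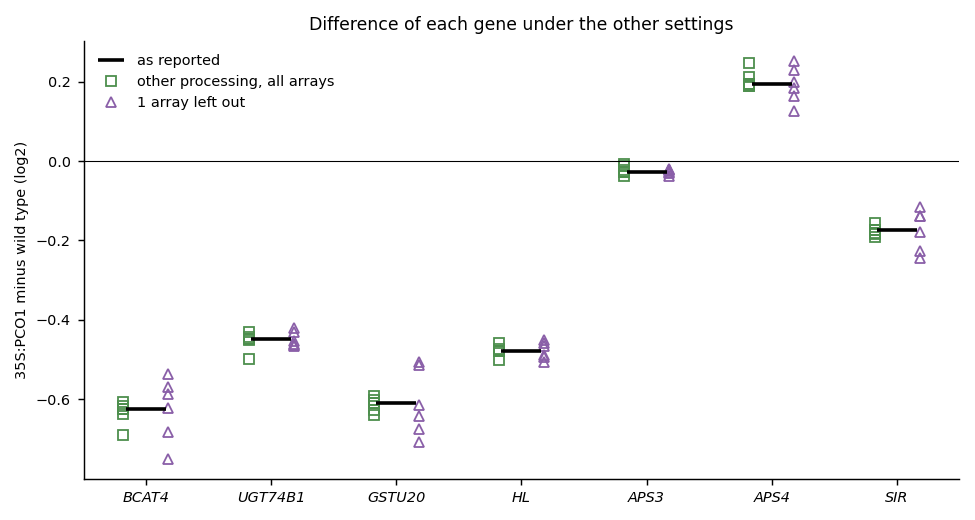
Difference of each gene, 35S:PCO1 minus wild type (vertical axis, log2), as reported (black bar), under other processing of all arrays (green squares) and with 1 array left out (purple triangles). The differences of BCAT4, UGT74B1, GSTU20 and HL stay between -0.75 and -0.42, those of SIR between -0.24 and -0.12, those of APS3 between -0.04 and -0.01, and those of APS4 between 0.13 and 0.25.

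The rest of the pathway could be followed only in part. Of 103 other genes written for sulfate transport and assimilation, cysteine, methionine and glutathione synthesis, the response to sulfur deficiency, and glucosinolate synthesis, regulation, transport and breakdown, 12 had a probe set of their own in the annotation. None of these 12 passed limma's test over all probe sets (0 higher, 0 lower), where 0.840% of all probe sets did. At an unadjusted p under 0.05, 3 were lower and 0 higher, against 7.49% lower and 5.89% higher over all probe sets. The ordinary t statistic called 0 of the 12, as it called 0.00% of all probe sets, and 2 of the 12 had an unadjusted p under 0.05, against 10.9% of all. Limma with array weights called 2 of the 12, both lower, where it called 9.74% of all probe sets. The weight was 4.55 for wild-type replicate 2 and 0.43 to 1.42 for the other arrays, so that fit leans on 1 wild-type array. The median difference of the 12 was -0.03, with 8 below 0 and 4 above. The sulfate transporters, the APS reductases, the cysteine synthesis genes, the MYB regulators and the cytochromes P450 of the pathway were not analysed here, since the annotation used pairs none of those written with a probe set of its own.

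GTR2, a transporter that imports glucosinolates into cells, had the largest difference of the 12. Its log2 signal was 7.96, 7.90 and 7.80 in 35S:PCO1 replicates 1, 2 and 3, against 8.13, 8.38 and 8.64 in wild-type replicates 1, 2 and 3. The groups did not overlap and lay 0.17 apart at the nearest. The difference was -0.49 (SE 0.11, limma adjusted p = 0.0946), and GTR2 passed when wild-type replicate 1 was left out. Its close relative GTR1, which shares the function, had 8.99 ± 0.047 in 35S:PCO1 and 8.88 ± 0.228 in wild type (log2, SD, n = 3 each), with overlapping groups and a difference of 0.11 (SE 0.10, limma adjusted p = 0.711). The difference between the 2 transporters was not tested.

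AT2G31790, written for the glucosinolate core and named by locus alone in the tables used, had a log2 signal of 8.93, 9.05 and 8.85 in 35S:PCO1 replicates 1, 2 and 3, against 9.26, 9.20 and 9.23 in wild-type replicates 1, 2 and 3. All 3 arrays of 35S:PCO1 lay below those of wild type, by 0.15 at the nearest. Its difference was -0.29 (SE 0.06, limma adjusted p = 0.0843). GTR2 and AT2G31790 both passed at an adjusted p under 0.1, where 1.37% of all probe sets were lower and 1.87% differed in either direction.

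In the list of PAPS and PAP turnover, TAAC differed most. It encodes a carrier of ATP and ADP that is also known to move PAPS out of the plastid. Its signal was 7.32 ± 0.11 in 35S:PCO1 and 7.51 ± 0.080 in wild type (log2, SD, n = 3 each), a difference of -0.18 (SE 0.07, limma adjusted p = 0.314), and its groups were separated by only 0.0018. SAL2, a relative of the PAP phosphatase gene SAL1, differed by 0.02 (SE 0.08) and AT5G63990 by -0.03 (SE 0.05). In contrast to HL, both had overlapping groups.

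CBL, which encodes cystathionine beta-lyase of methionine synthesis, differed by -0.12 (SE 0.07). The 2 measured genes of the sulfur deficiency list were BGLU28, a beta-glucosidase gene that rises strongly when plants lack sulfur, and AT1G04770. BGLU28 had 4.07 ± 0.0056 in 35S:PCO1 and 4.09 ± 0.037 in wild type (log2, SD, n = 3 each). These values are just above 3.07 to 3.82, the range of 12 control probe sets for dap and lys, bacterial genes, taken as the floor of the signal, so a fall of BGLU28 could hardly have been seen. AT1G04770 had 8.02 ± 0.18 in 35S:PCO1 and 8.01 ± 0.16 in wild type, a difference of 0.01 (SE 0.10). All 7 genes of the main set lay above this floor in every array, the lowest value being 8.11.

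MYC3 and MYC4 encode bHLH factors that act with the MYB activators of glucosinolate genes. MYC3 differed by 0.04 (SE 0.09) and MYC4 by -0.06 (SE 0.07), and the groups overlapped in both. AOP3, an oxygenase gene of side chain modification, differed by -0.0024 (SE 0.07).

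**Figure D4:**
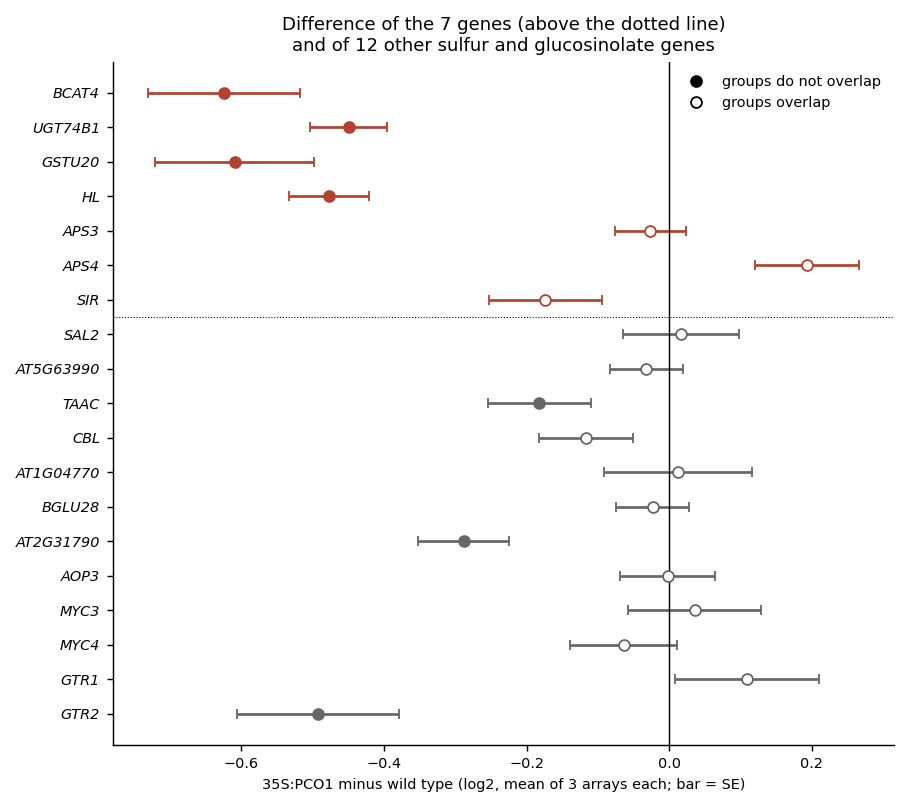
Difference in log2 signal, 35S:PCO1 minus wild type, with its SE, for the 7 genes (red) and 12 other sulfur and glucosinolate genes (grey). Filled points mark genes whose groups do not overlap: BCAT4, UGT74B1, GSTU20 and HL among the 7, and TAAC, AT2G31790 and GTR2 among the 12. The groups of TAAC lie only 0.0018 apart. Over all tested probe sets, 18.4% did not overlap in either direction and 9.31% did so with 35S:PCO1 lower.

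The genes next to the 7 on the chromosomes, by the gene order of the RefSeq table of TAIR10.1, were looked up after the values had been seen. Of the 14 direct neighbours, 10 had a probe set of their own, and none passed limma's test, which 0.840% of all probe sets did. At an unadjusted p under 0.05 there were 2 of the 10, AT5G54400 and AT5G04600, both lower, against 13.4% of all. The ordinary t statistic called 0 of the 10, and limma with array weights 1, DME beside SIR, where it called 9.74% of all. The measured neighbours of the 4 lower genes differed by -0.12 to 0.09, among them GSTU21, a tau-class relative beside GSTU20, with -0.06 (SE 0.07). In 3 of them the signal was near the floor, which left little room for a fall to be seen. GSTU21 averaged 4.01 in 35S:PCO1 and 4.07 in wild type, and IKU2 beside BCAT4 4.18 in 35S:PCO1 and 4.08 in wild type (log2). AT5G54400 beside HL averaged 4.15 in 35S:PCO1 and 4.27 in wild type, a difference of -0.12 (SE 0.05, limma adjusted p = 0.362). SIR was flanked by DME, which differed by -0.16 (SE 0.07), and by AT5G04600, which differed by -0.15 (SE 0.06), both close to the -0.17 of SIR itself.

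Likeness of pattern was measured by Pearson's r over the 6 arrays, among probe sets with 1 named gene. These values describe 6 arrays that share 2 genotypes, and the highest of so many are high by selection. UGT74B1 had AT3G10080 (r = 0.996) and HL itself (r = 0.990) as its closest patterns. HL in turn had AT3G10080 (r = 0.993) and AT1G72920 (r = 0.992), so that AT3G10080 headed both lists, with a difference of -0.68 (SE 0.06). The mean of each genotype was then removed. Over the 6 arrays r was then 0.93 between HL and BCAT4, 0.94 between HL and GSTU20 and 0.86 between BCAT4 and GSTU20. UGT74B1 had a lower r with each of these genes, 0.62 with HL, 0.44 with BCAT4 and 0.40 with GSTU20. With the means kept, BCAT4 was closest to AT5G03610 and to PRP39 (r = 0.997 and 0.996), and GSTU20 to AT1G35780 and AT1G21440 (both r = 0.998). The closest patterns of APS3 were AT3G07750 and AT1G72250 (r = 0.990 and 0.986), those of APS4 were AT1G30540 and AT5G11680 (r = 0.991 and 0.987), and those of SIR were AT3G58570 and AT3G58660 (r = 0.995 and 0.993).

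The arrays as a whole were alike, with medians of 6.11 to 6.15 and correlations across probe sets of 0.998 to 0.999 within 35S:PCO1, 0.996 to 0.998 within wild type and 0.995 to 0.997 between the genotypes. The control probe set for 25S ribosomal RNA moved with genotype, at 7.39, 7.54 and 7.30 in 35S:PCO1 and 8.88, 8.66 and 8.48 in wild-type replicates 1, 2 and 3 (-1.26, SE 0.10). That for 5S ribosomal RNA differed by 0.04 (SE 0.12). The 64 controls were fitted on their own, so limma moved these variances toward a value common to the controls only. Among wild-type arrays 25S was highest in replicate 1. Of the 7 genes, BCAT4, UGT74B1, GSTU20 and HL were lowest in that array, UGT74B1 only narrowly (8.999, against 9.007 in wild-type replicate 3). SIR was highest in replicate 1. Of the 12 other pathway genes, 4 were lowest in it, GTR2 among them, and 5 were highest, AT2G31790 and GTR1 among them. Of the leaf markers, RCA and LHCB4.1 were measured (2 of 7), and their summed linear signal was 22525 to 23459 in 35S:PCO1 and 22606 to 23381 in wild type. The root markers PYK10 and EXPA7 (2 of 6) summed to 262 to 283 in 35S:PCO1 and 269 to 397 in wild type. PYK10, a beta-glucosidase gene of roots and seedlings, differed by -0.45 (SE 0.15, limma adjusted p = 0.233) and EXPA7 by 0.19 (SE 0.07, limma adjusted p = 0.257). The senescence markers SAG101 and WRKY53 (2 of 5) summed to 105 to 119 in 35S:PCO1 and 99 to 110 in wild type, and no flower or seed marker was measured. The part of 25S ribosomal RNA and of these markers in the differences of the 7 genes was not tested.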

How the data were processed

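The authors deposited 1 log2 value for each probe set on each array, and RMA is the 1 tool that the submitters' processing notes name, with no version. RMA corrects the background, quantile-normalizes the arrays and summarises the probes of each set, so a change in total RNA per rosette is hidden. No value was rescaled, and every column belonged to a sample. Of 22810 probe sets, 64 controls were set aside. Of the other 22746, GEO's platform annotation gave 13513 a single gene, 503 several and 8730 none. Names were updated through the RefSeq table of TAIR10.1 for 13436. No coordinates are given, since no build is named for these values. The probe sets of the 7 genes end in plain _at, the Affymetrix suffix for sets designed to match 1 gene.

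Genotypes were compared with limma 3.58.1 (lmFit, eBayes with a constant prior) in R 4.3.3, two-sided, with Benjamini-Hochberg adjustment over all 22746, a threshold of 0.05 and no covariate. With 3 arrays against 3, an exact permutation test cannot give a p below 0.1. Precision is limited by the number of arrays. The procedure was also run on simulated data, drawn independently for each probe set. Such data hold no deviation shared by the probe sets of an array, so nothing about the calls above is read from them. The 7 genes and the pathway lists were chosen with earlier results of these data known. Each pathway gene was represented by its brightest probe set and all measured ones are named, as are the 2 patterns most like each of the 7 genes. Neighbouring genes were added after the values had been seen. Alternatives were filters on the dimmest 20% and 40%, 3 scalings, array weights, a trended robust prior, the replicate block, an ordinary t statistic, a looser threshold and leaving out each array.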

Additional observations from a re-analysis of the deposited data

How the results depend on the processing

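The count of changed probe sets (191) became 426 at an adjusted p under 0.1, by construction, and 2216 with array weights. The weighted fit leaned on wild-type replicate 2, whose weight was 4.55 against at most 1.42 for any other array. The ordinary t statistic gave 0, though 2472 had an unadjusted p under 0.05, and the count ran from 5 to 489 when 1 array was left out. It was 160 to 244 under both filters, the 3 scalings, the trended robust prior and the replicate block. The count of changed genes among the 12 others of the pathway (0) became 2 at an adjusted p under 0.1 and 2 with array weights, in both cases AT2G31790 and GTR2, and was 0 to 1 when 1 array was left out. Fits with 1 array left out also have a smaller sample. The cause of these changes was not tested. The replicate block gave 228 probe sets, of which 155 were shared, and 0 of the 12, and BCAT4, UGT74B1, GSTU20 and HL remained called. Arrays with the same number showed no shared deviation from their group means (r of -0.06, -0.08 and -0.02 across probe sets). Each of the 7 differences kept its sign under its 16 alternatives. The difference of UGT74B1 was -0.50 with array weights and that of APS3 was -0.0084 with median centring. Both shifts were above the SD pooled over the replicates of both groups (0.0425 and 0.0155). The SD of APS3 within 35S:PCO1 alone, 0.0202, was larger than its shift. Median centring moves the difference of every probe set by the same amount, so that shift is not particular to APS3. GSTU20 was not called with the dimmest 40% left out, APS4 was called with array weights, and none of the 7 was called with the ordinary t statistic. RMA gives no detection call, so low signals such as that of BGLU28 limit what could be seen.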
